A study of Mus musculus with 40 samples.

Results

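The arrays described here compare mouse embryonic stem (ES) cells grown for 3 days with 1 µM retinoic acid (RA) with the same lines grown with leukemia inhibitory factor (LIF) alone. They are 8 of the 40 arrays analysed from the series: all arrays of the Nanog experiment whose title names RA, and the arrays of the same lines titled LIF+ without RA. The RA medium was the complete ES medium, LIF included, with RA added, so LIF is shared by both groups and RA is what differs. The 4 lines are Nanog episomal (a clone carrying a Nanog transgene on an episomal vector, strain 129Sv), MG1.19 (129Sv, passage 5), Nanog/EF1#6 (a clone with an integrated Nanog transgene, 129SvEv-Tac) and ES 129.3 (129SvEv-Tac, passage 12). Each clone stands beside a parental line of its strain, but the sources differ on which lines the clones came from. Each line was measured once in each medium, and the arrays of the parental lines were reused from an earlier submission. The clones are single clones related to their parental lines, so the 4 lines are the replicates of the comparison but are not 4 independent isolates. On every array the ES cell RNA was labeled with Cy3 and a pooled Universal Mouse Reference RNA with Cy5, and a level is given as log2(Cy3/Cy5). Another 4 arrays, of the same lines without LIF, serve as a comparison.

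RA is the acid form of vitamin A. Cells take up retinol, oxidize it to retinal and then to RA, and remove RA through enzymes of the Cyp26 family. RA binds nuclear receptors (RARs, paired with RXRs) that sit on DNA at direct repeats of a short half-site, and genes near such elements are switched on within hours. In ES cells RA is a classical inducer of differentiation, known for the activation of Hox genes and for the loss of the pluripotent state, which LIF helps to maintain through Stat3.

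The labels of the media were checked first with Cyp26a1, the enzyme that breaks RA down and a direct target of the receptors, and Rarb, an RA receptor that RA itself induces. The promoter windows of both genes are shown because each holds the receptors' repeat. A script searched 250 bases before to 50 bases after RefSeq transcription starts (build GRCm38.p6) on both strands for DR5, which here means a pair of half-sites in the same direction, each being AGGTCA or its variant AGTTCA or GGGTCA or else GGTTCA, with 5 bases between them. Such a repeat is present for 31 of 27025 genes (0.115%) with a searched promoter. Of those, 10871 were tested here with a symbol, and 8 (0.0736%) hold it. Promoters on 1 chromosome were left out of the search, so its genes could not match. Among the genes that rose in all 4 lines (below) with a searched promoter, 3 of 364 (0.824%) hold the repeat. Among those that fell, 0 of 100 do. The third gene is Ppbp, a platelet chemokine named because it is the only other match among the 364, with a rise of 1.92. The same repeat with a spacer of 2 bases (DR2) was found for 0 of the 364 genes that rose and 1 of the 100 that fell (Slc7a7). It was found for 84 of the 27025 genes (0.311%), and for 8 of the 10871 tested with a symbol (0.0736%). A match is a string of letters and not a proven site. The 250 bases before the start are given here 5′ to 3′ on the strand of the gene, with the repeat in capitals. The window of Cyp26a1 is chr19:37697558-37697807 on the plus strand and its repeat begins 32 bases before the start. The window of Rarb is chr14:16575477-16575726 on the minus strand and its repeat begins 53 bases before the start.
Cyp26a1: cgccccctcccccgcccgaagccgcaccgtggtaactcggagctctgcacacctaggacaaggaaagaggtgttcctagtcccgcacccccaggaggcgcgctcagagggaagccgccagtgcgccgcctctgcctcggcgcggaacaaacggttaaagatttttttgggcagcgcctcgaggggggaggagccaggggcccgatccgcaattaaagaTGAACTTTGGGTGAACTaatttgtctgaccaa
Rarb: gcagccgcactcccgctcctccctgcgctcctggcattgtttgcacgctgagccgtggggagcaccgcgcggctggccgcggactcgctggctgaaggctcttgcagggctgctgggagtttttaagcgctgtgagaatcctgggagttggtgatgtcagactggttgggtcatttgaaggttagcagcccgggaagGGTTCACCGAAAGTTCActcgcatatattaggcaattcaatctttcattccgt

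The level of Cyp26a1 with LIF was 0.07 in Nanog episomal, -0.03 in Nanog/EF1#6, 0.23 in MG1.19 and 0.47 in ES 129.3, and on RA it was 3.10, 2.88, 2.75 and 2.61. Every RA array lay above every LIF array. The mean difference was 2.65 ± 0.16 on the log2 scale (SE of the paired fit, n = 4 lines), or 6.28-fold, with an adjusted p of 0.00514 (limma, two-sided). A second, dimmer probe of Cyp26a1 gave a mean of 3.47, with lines between 2.63 and 4.19. The level of Rarb was between -0.17 and 0.12 with LIF and between 1.57 and 2.56 on RA, a 4.30-fold difference (SE 0.16 on the log2 scale, adjusted p 0.00711). Levels without LIF were 0.24 to 1.05 for Cyp26a1 and -0.17 to 0.06 for Rarb. Both markers therefore separated the 4 arrays titled RA from the other 8, as plotted with 6 further genes.

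**Figure D1:**
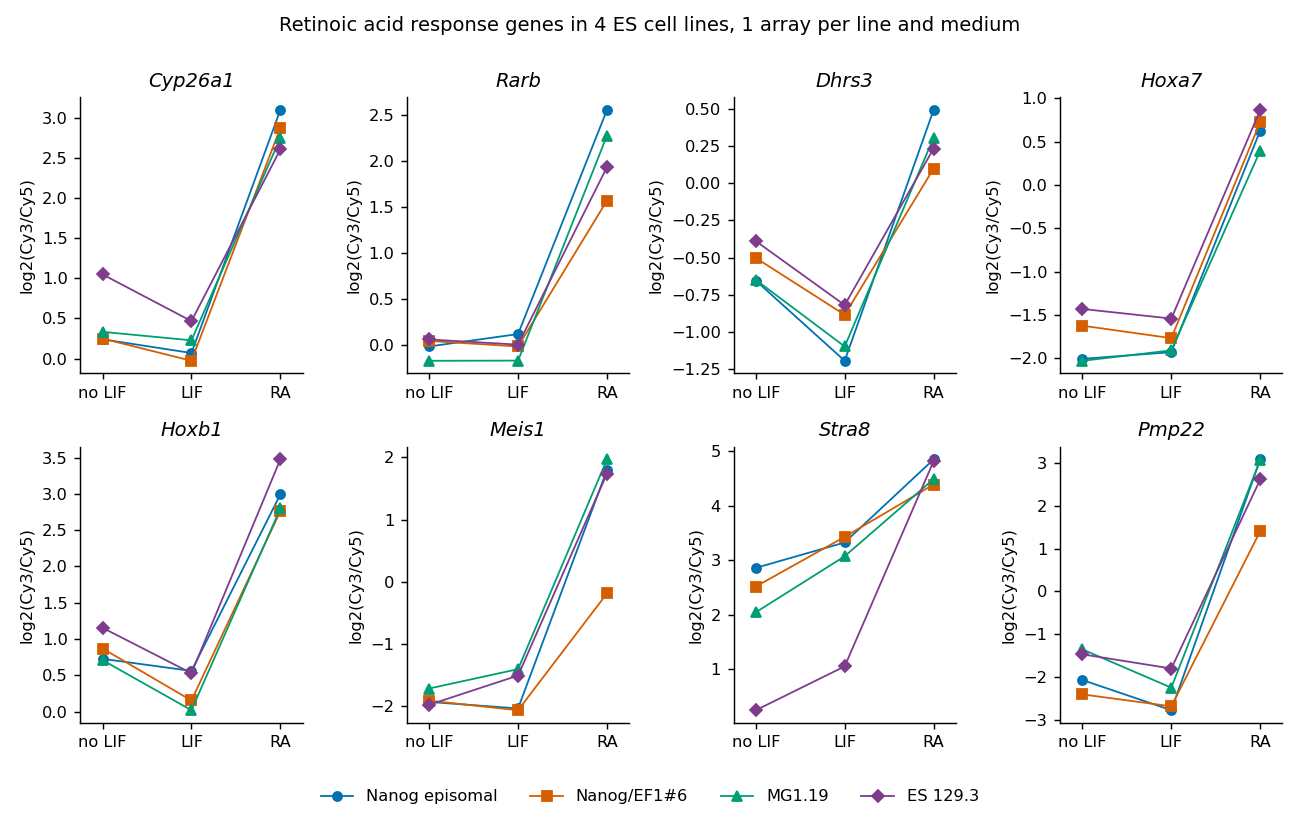
Level as log2(Cy3/Cy5) of 8 genes (vertical axes, each with its own scale) without LIF, with LIF and on RA, 1 point per array, with a line joining the arrays of each ES cell line. Cyp26a1 on RA lies between 2.61 and 3.10 in all lines, and Stra8 starts lower in ES 129.3 (1.05 with LIF) than in the other lines and reaches 4.39 to 4.85 on RA.

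The array holds 41006 gene probes, which stand for 37680 genes or unnamed transcripts, and 13712 of these carry a gene symbol. The median Cy3 signal was 531 to 662 per array over a local background of 375 to 387, and 1.78% to 5.07% of its gene probes did not exceed the 95th percentile of the negative control spots. The scanner software processed the images of the 129Sv lines on one day and those of the 129SvEv-Tac lines on another, so that day and strain cannot be told apart, while each day holds both media.

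Over the 4 lines, RA raised 1363 of the 37680 genes or transcripts (3.62%) and lowered 351 (0.932%), where a call takes 1.5-fold and an adjusted p of at most 0.05. Of these, 675 rose (1.79%) and 158 fell (0.419%) by at least 1.5-fold in each of the 4 lines, and these 833 are called here changed in all 4 lines. Among them, 191 rose and 52 fell by more than 2-fold in every line, and 20 rose and 1 fell by more than 4-fold in every line. The median difference of all genes was -0.01. At the edge of the rule, where 1.5-fold is 0.585, the named genes nearest to it are H19 and Pim3 just inside (0.593 and -0.596 in the line that moved least) and Spry4 and Gbx2 just outside (-0.582 and -0.554). These counts rest on the error estimate from 4 pairs. Without the MG1.19 pair limma calls 0 genes (5767 at an unadjusted p under 0.05) and without the ES 129.3 pair 996. When the error variance is taken as the larger of the gene's own and the mean of 500 genes of similar intensity, 0 pass (2905 unadjusted). The paper describes this choice of error variance for its own tests. The sizes of the differences do not depend on the error estimate. Whatever the p, 857 genes changed at least 1.5-fold in the same direction in every line, and 908 did so in the 3 lines without MG1.19.

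The largest rise was that of Pmp22, a protein of myelin and of epithelial junctions. Its level was -2.78, -2.69, -2.25 and -1.80 with LIF (Nanog episomal, Nanog/EF1#6, MG1.19 and ES 129.3) and 3.09, 1.41, 3.08 and 2.62 on RA. The difference was 4.93 ± 0.31 (30.6-fold, adjusted p 0.00528), and the lowest RA array was that of Nanog/EF1#6. Next were Adgra2, an adhesion receptor of blood vessels (3.61), and the actins Acta2 of smooth muscle (3.35) and Acta1 of skeletal muscle (3.27). The 20 largest rises also held the genes of the transcription factors Zfp703 (3.26), Tshz1 (3.10), Meis1 (3.08), Esx1 (2.91) and Meis2 (2.91). Others were Krt18 (3.12), an epithelial keratin, Fbn2 (3.06), a fibrillin of elastic fibers, F3 (3.00), the tissue factor that starts coagulation, Anxa3 (2.91), Cdc42ep1 (2.89), Pdzrn3 (2.81), Prss23 (2.79), Cald1 (2.77), the actin-binding caldesmon, Zadh2 (2.75) and Dlk1 (2.72), a Notch-like ligand from an imprinted locus. Acta1, Krt18 and Anxa3 were the most uneven, with 1.21 to 1.42 in ES 129.3 against 2.93 to 5.12 in the other lines. In ES 129.3 the LIF level of Krt18 was already -0.07, against -4.35 to -1.97 elsewhere.

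The largest fall was that of Slc7a3, a carrier of cationic amino acids. Its level was 2.76, 3.51, 3.24 and 3.58 with LIF and 0.07, 0.66, 0.02 and -0.02 on RA, a difference of -3.09 ± 0.16 (8.51-fold lower, adjusted p 0.00514). Nr0b1 (Dax1), an orphan nuclear receptor of the pluripotency network, came next with -2.78, followed by Lrrc34 (-2.34), Morc1 (-2.30), which silences transposable elements in germ cells, Mtm1 (-2.15), Platr10 (-2.12), a noncoding RNA of pluripotent cells, and Tcl1 (-2.08), a cofactor of Akt. Enzymes of ES cell metabolism were among the 20: Tdh, threonine dehydrogenase (-2.08), and Pdk1, the kinase that restrains pyruvate dehydrogenase (-1.84). Others were Etv5 (-1.91), a target of FGF signaling, N4bp3 (-1.84), Neurod1 (-1.82), Slc7a7 (-1.74), Tet1 (-1.65), Pla2g10 (-1.64), Hmces (-1.64), Zfp296 (-1.64), Pcolce2 (-1.62) and Tcf15 (-1.62). The second, dimmer probes of Mtm1 and N4bp3 did not show the fall (0.08 and 0.01), and that of Etv5 showed a smaller one (-0.51).

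**Figure D2:**
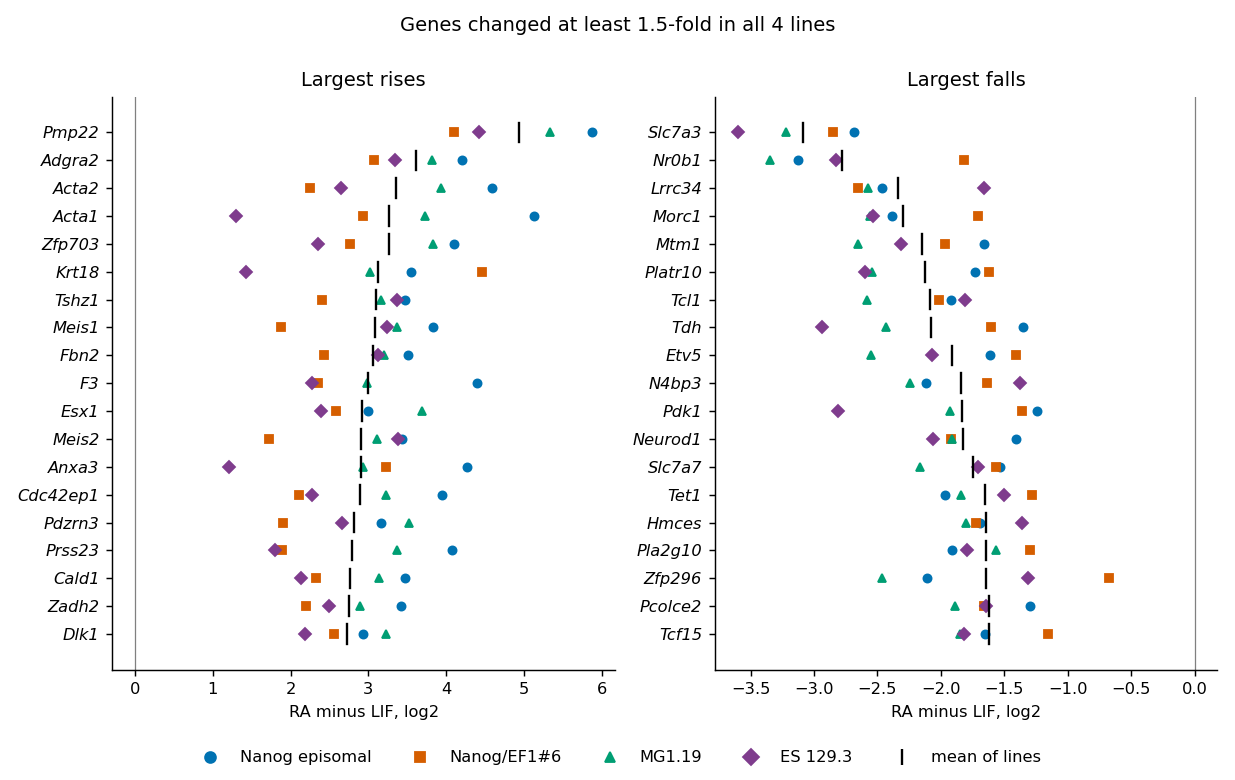
RA minus LIF (horizontal axes, log2) of 19 of the 20 genes with symbol that rose most and 19 of the 20 that fell most among those changed in all 4 lines, with 1 symbol per line and a bar at the mean. Rises span 1.21 to 5.87 over genes and lines, and falls span -3.60 to -0.68.

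Within the RA pathway itself, the genes called were all higher on RA. Of the 13712 genes with a symbol, 6.52% rose over the lines, 1.93% fell, and 462 rose in all 4 lines. Of the 11 measured genes for uptake and synthesis of RA, 4 (36.4%) rose over the lines, each in all 4 lines. Among them, Stra6, the retinol uptake receptor, rose by 1.03 ± 0.10 (0.0111), Dhrs3, which reduces retinal back to retinol, by 1.28 ± 0.13 (0.0111), and Rdh10, which oxidizes retinol to retinal, by 1.14 ± 0.20 (0.0362). The retinal dehydrogenases that make RA showed no such change: Aldh1a2, the main one of the embryo, differed by -0.03 (adjusted p 0.936) and Aldh1a3 by 0.02 (0.901), while Aldh1a1 was at 0.33 (0.0618) and Aldh1a7 at 0.66 (0.0746). Lrat, Rdh11 and Rbp2 lay between 0.00 and 0.07. Of the binding proteins, Crabp1 was at 0.10 (0.819), and Fabp5, which can carry RA to another nuclear receptor, at 1.10 (0.0756). Of the 6 receptors only Rarb passed: Rara (-0.24), Rarg (-0.12), Rxrb (-0.14) and Rxrg (-0.29) were near 0, and Rxra was at 0.89 (0.0872), with lines between 0.23 and 1.65. Cyp26b1, the other measured enzyme of RA breakdown, was at -0.07 (0.49), and 0 of the 5 measured coregulators were called.

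The list of 15 further genes responsive to RA came from general knowledge, but with earlier results of these data known. Its median difference was 1.06, against 0.01 for all genes with a symbol. Of the 15, 0 fell and 8 rose (53.3%, against 6.52% of all genes with a symbol), 7 of them in all 4 lines. Besides Zfp703, Tshz1, Meis1 and Meis2, these included Gprc5a (1.72 ± 0.10), an orphan receptor named for its induction by RA, Foxa1 (1.63 ± 0.13), a pioneer factor of endoderm, and Tgm2 (0.98 ± 0.13), tissue transglutaminase. Stra8, the gatekeeper of meiosis, did not pass (1.92 ± 0.48, adjusted p 0.084), although its level was higher on RA in all 4 lines: with LIF it was 3.07 to 3.43 in 3 lines and 1.05 in ES 129.3, and on RA 4.39 to 4.85 in all of them. The orphan receptors Nr2f1 (1.06, 0.146) and Nr2f2 (0.95, 0.0604) also varied between lines, from 0.41 to 2.33 and from 0.17 to 1.39. Cdx1 (0.19), Pbx3 (0.28) and Rai14 (0.48) were not called. For Zfp503 the probes disagree: the brighter one was at -0.07 (not called, adjusted p 0.468), and the other rose by 1.88 (0.0279 over all probes).

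Hox genes encode the factors that pattern the body axis, and their order in the 4 clusters follows the order in which they are used. Of the 26 measured Hox genes 7 rose (26.9%, against 6.52% of all genes with a symbol) and 0 fell. Of the 7, 5 rose in all 4 lines, and all 7 lie in the Hoxa and Hoxb clusters. Hoxb1, a gene of the hindbrain, was 0.56, 0.15, 0.02 and 0.53 with LIF and 2.99, 2.76, 2.80 and 3.47 on RA, a difference of 2.69 ± 0.09 (6.45-fold, adjusted p 0.00488), with lines between 2.43 and 2.94, and Hoxa7 rose by 2.44 ± 0.06, with lines between 2.303 and 2.557. Hoxa7 and Hoxb1 had the lines closest together among the named rises of more than 4-fold. Hoxa5 rose by 2.01 ± 0.17 and Hoxb6 by 0.88 ± 0.12. Hoxa10 (0.90) and Hoxa2 (0.87) were called over the lines, with 0.47 in MG1.19 and 0.31 in Nanog/EF1#6 as their lowest values. Within the Hoxa cluster the measured differences did not follow the order of the genes. Hoxa6 (-0.01), Hoxa9 (0.28) and Hoxa11 (0.04) stayed near 0 between or beside genes that rose. Hoxa13 (-0.08), next to Hoxa11 among the measured genes, was near 0 as well. Hoxa11 read below the negative controls on 2 LIF and 2 RA arrays. Whether the probes of the Hox genes that were not called respond was not tested. In the Hoxb cluster Hoxb4 (0.34), Hoxb5 (0.15), Hoxb8 (0.50), Hoxb9 (0.07) and Hoxb13 (0.38) were not called. None of the 5 measured Hoxc genes (-0.09 to 0.55) and none of the 5 Hoxd genes (-0.06 to 0.33) was called. Below the negative controls were also Hoxd10 on 3 LIF and 4 RA arrays, Hoxc12 on 1 LIF and 1 RA array, and Hoxd3 on 1 RA array. Other members, such as Hoxa3, Hoxa4, Hoxb2 and Hoxb3, were not analysed here.

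**Figure D3:**
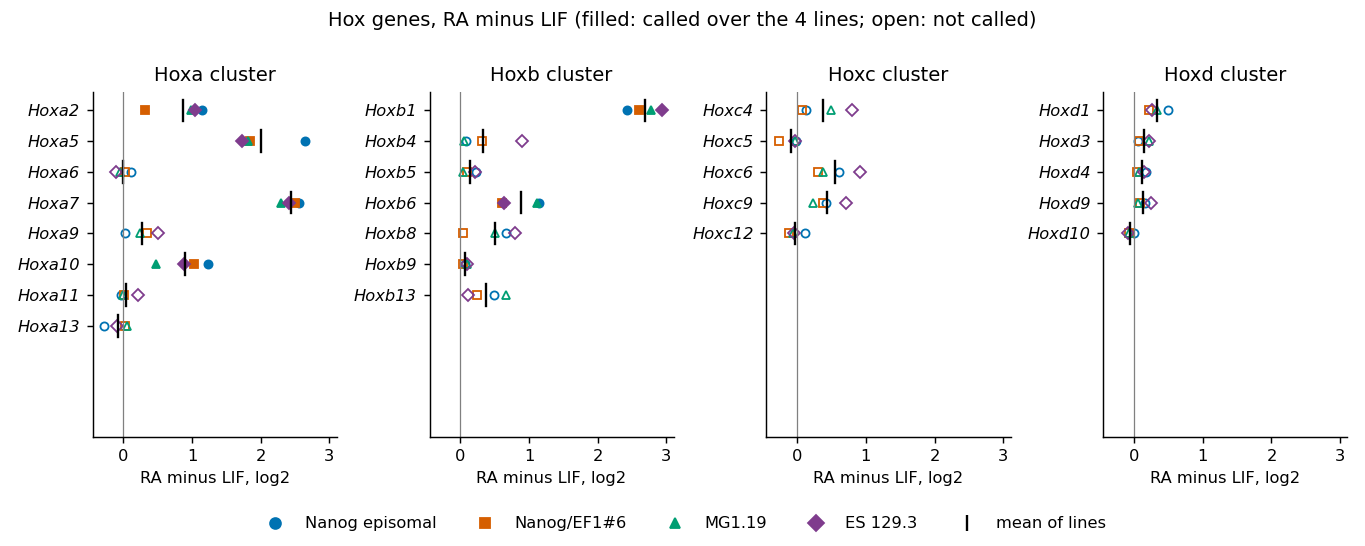
RA minus LIF (horizontal axes, log2) of 25 of the 26 measured Hox genes by cluster, in order of their number, with 1 symbol per line and a bar at the mean. Filled symbols mark called genes, from 0.87 (Hoxa2) to 2.69 (Hoxb1), all in the Hoxa and Hoxb panels.

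Genes of the pluripotent state had the lowest median of the lists. Of 34 measured genes 12 fell (35.3%, against 1.93% of all genes with a symbol) and 0 rose. Of the 12, 10 fell in all 4 lines, and the median of the list was -0.60. Among the largest falls were Nr0b1, Tcl1, Tdh, Utf1 (-1.45 ± 0.07) and Phc1 (-1.42 ± 0.19). Nr0b1 was 4.92, 5.62, 4.93 and 4.29 with LIF and 1.79, 3.80, 1.58 and 1.46 on RA. On RA it was highest in Nanog/EF1#6. Sox2, chosen after its values were seen, was 5.17 to 5.95 with LIF and 3.86 to 4.45 on RA, a fall of 1.39 ± 0.12 (adjusted p 0.00861). Zfp42 (Rex1), chosen in the same way, was called at -0.85 (0.0194), with -0.49 in Nanog/EF1#6.

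Nanog did not pass over the 4 lines, and neither did the brighter probe of Pou5f1 (Oct4). Pou5f1 was 2.81, 2.77, 2.14 and 2.16 with LIF (Nanog episomal, Nanog/EF1#6, MG1.19, ES 129.3) and 0.65, 2.42, 0.82 and 0.49 on RA. The mean difference was -1.38 ± 0.29 (adjusted p 0.0561), with -2.16 to -1.32 in 3 lines and -0.35 in Nanog/EF1#6. The other, dimmer probe of Pou5f1 gave -0.94, with lines between -1.54 and -0.48 and an adjusted p of 0.0397 over all probes, so that this probe meets the rule of a call and the brighter one does not. Nanog was 1.28, 2.48, 1.91 and 1.61 with LIF and 0.66, 2.49, 1.26 and 1.27 on RA, a difference of -0.40 ± 0.12 (adjusted p 0.144), with -0.65 to -0.34 in 3 lines and 0.02 in Nanog/EF1#6. In that line, which carries the integrated Nanog transgene, both genes thus had their highest RA level. The probe of Nanog showed no higher LIF level in Nanog episomal (1.28) than in the lines without a transgene (1.61 and 1.91). The paper reports raised Nanog expression by real-time PCR in both clones, and more in the episomal clone. Whether the probe reads the transgenes was not tested. Esrrb, chosen after its values were seen, had levels of -0.07 to 0.42 on all 8 arrays (-0.24, adjusted p 0.0949).

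**Figure D4:**
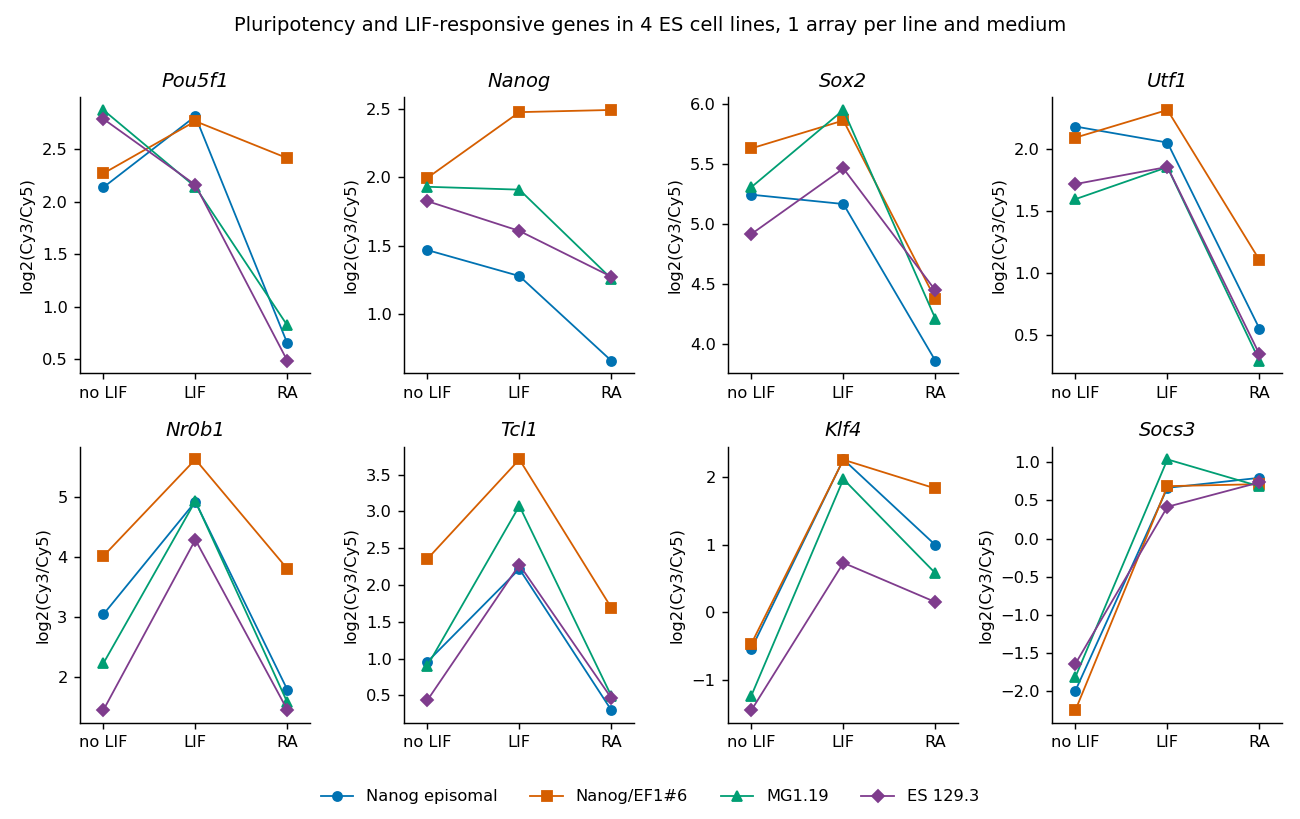
Level as log2(Cy3/Cy5) of 8 genes (vertical axes, each with its own scale) without LIF, with LIF and on RA, 1 point per array, with a line joining the arrays of each ES cell line. Pou5f1 on RA is 0.49 to 0.82 in 3 lines and 2.42 in Nanog/EF1#6, and Socs3 is 0.68 to 0.80 on RA and -2.24 to -1.64 without LIF.

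Socs3, the feedback inhibitor that Stat3 induces, was 0.42 to 1.04 with LIF and 0.68 to 0.80 on RA, a difference of 0.03 ± 0.12 (adjusted p 0.921), and -2.24 to -1.64 without LIF. Of the 12 measured genes of the LIF and Stat3 pathway, 1 rose (8.33%), the kinase gene Jak1 (0.87). In the same list 2 fell (16.7%), the kinase gene Pim3 (-0.84) and Gbx2 (-0.82). Over all genes with a symbol 6.52% rose and 1.93% fell. Klf4, a Stat3 target chosen after its values were seen, was at -0.91 (adjusted p 0.0516) against LIF and 1.81 above the level without LIF (adjusted p 0.0016).

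Chromatin genes linked to pluripotency were also among those that fell. Of 8 measured genes of DNA methylation 3 fell (37.5%) and 1 rose (12.5%), against 1.93% and 6.52% of all genes with a symbol. Tet1, which oxidizes methylcytosine and is abundant in ES cells, went from 2.69 to 3.66 with LIF to 1.00 to 2.38 on RA (-1.65 ± 0.13, adjusted p 0.00694). Tet2 fell (-0.87) and Dnmt3l, the cofactor of the de novo methyltransferases, fell by 0.59, while Tet3 rose (0.79). Of 17 Polycomb genes 3 fell (17.6%), which are Phc1, Eed (-0.97 ± 0.08) and Jarid2 (-0.83 ± 0.12). Phc2, another member of the same subunit family as Phc1, rose by 0.83 ± 0.08 (1 gene, 5.88%).

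The group with the largest median rise was that of contractile and matrix genes, with a median of 1.80. Of its 22 genes 14 rose (63.6%, against 6.52% of all genes with a symbol), 12 of them in all 4 lines, and 0 fell. Acta2 was -3.87, -3.54, -2.57 and -0.42 with LIF and 0.71, -1.30, 1.36 and 2.23 on RA, so that the LIF array of ES 129.3 lay above the RA array of Nanog/EF1#6. In the same list Anxa1 (2.53 ± 0.44), Lgals1 (2.39 ± 0.27), the tropomyosin gene Tpm1 (2.13 ± 0.32) and the myosin light chain gene Myl9 (2.12 ± 0.35) rose, and Tagln (transgelin), chosen after its values were seen, did not pass (2.74 ± 0.56, adjusted p 0.0519). The mean level of the 22 genes was -2.27 to -0.21 with LIF and -0.97 to 1.09 on RA. Actins share long stretches of sequence, and a probe of one may also bind another. Markers of fibroblasts, the feeder cells that had been removed by passages on gelatin, moved in part with this list: 1 of 8, Dcn (1.20), was called, their median was 0.68, their mean level was -2.56 to -1.74 with LIF and -2.19 to -0.64 on RA, and none was below the negative controls on all 8 arrays. Their part in the rise of the contractile genes was not tested.

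Some markers of extraembryonic lineages rose as well. The shares over all genes with a symbol were 6.52% up and 1.93% down. Of 15 measured trophectoderm genes 7 (46.7%) rose, all in all 4 lines, and 0 fell. These were Krt18, Esx1, a homeobox gene of the placenta, Gata3 (2.20 ± 0.14), Krt8 (2.04 ± 0.34), Rhox6 (1.53 ± 0.11), Gata2 (1.43 ± 0.08) and Rhox9. The defining factor Cdx2, chosen after its values were seen, was at -0.21 (adjusted p 0.665), and Elf5 and Hand1 were not called. For their time course of Pou5f1 suppression, on another array design, the authors describe the probe of Cdx2 as one that did not respond, and whether the probes used here respond was not tested. Of 22 primitive endoderm genes 6 (27.3%) rose and 0 fell. Gata6, a master regulator of this lineage, was -2.33 to -1.64 with LIF and -0.09 to 0.92 on RA (2.22 ± 0.18, adjusted p 0.00723). Plat (2.23), Cubn (1.75), Col4a1 (1.66), Sox7 (1.48) and Pth1r (0.83) rose too. Plat read below the negative controls on 3 of the 4 LIF arrays, so its LIF level is close to the limit of the array. In bulk RNA, more cells of a type and more RNA per cell cannot be told apart.

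Neural and primitive streak genes gave no common direction. Of 27 neural genes 3 rose, which are Irx3 (1.97 ± 0.19), Msx1 (1.12 ± 0.18) and Zic1 (0.59 ± 0.11), and 2 fell, Neurod1 and Stmn2 (-1.29 ± 0.20). These are 11.1% and 7.41% of the list, against 6.52% and 1.93% of all genes with a symbol. Of 21 genes of the epiblast and primitive streak, Foxa2, a factor of endoderm and floor plate, rose (1.86 ± 0.18). Otx2, a factor of the anterior epiblast, fell (-1.40 ± 0.24). Each is 4.76% of this list. Otx2 was 0.94 to 2.19 with LIF, -0.01 to 0.18 on RA and 2.63 to 3.10 without LIF.

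Among signaling pathways, the BMP list moved most. Over all genes with a symbol 6.52% rose and 1.93% fell. Of 18 genes 8 rose and 0 fell, 5 of them in all 4 lines, led by the target genes Id3 (1.83 ± 0.26), Msx2 (1.26 ± 0.13) and Msx1, the transducer Smad1 (1.00 ± 0.18), the inhibitor Smad6 (0.87 ± 0.08) and the receptor Bmpr1a (0.86 ± 0.12). The ligands Bmp2 and Bmp4 were not called. Of 27 Wnt genes 5 rose and 0 fell: the secreted inhibitor Dkk1 (2.08 ± 0.20), its relative Dkk3 (1.46 ± 0.14), the intracellular inhibitor Nkd1 (1.35 ± 0.18), and the receptors Fzd2 (1.51 ± 0.24) and Fzd1 (0.85 ± 0.12). The second, dimmer probe of Fzd1 was at 0.003 (adjusted p 0.989 over all probes). Their common target Axin2 was not called. In the FGF list 2 of 20 genes fell, Etv5 and Spry4 (-0.73 ± 0.08), both targets of the ERK branch. Of 17 genes of the Nodal and Activin pathway 1 rose (5.88%), near the share over all genes with a symbol. In the Notch list 1 of 17 genes fell, the ligand Jag1 (-0.70), and in the Hedgehog list 1 of 7, Gli2 (-0.86).

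Of 16 measured imprinted genes 7 rose and 0 fell, 5 of the 7 in all 4 lines. For this and the following lists, the shares over all genes with a symbol were 6.52% up and 1.93% down. Dlk1 was -3.79 to -2.76 with LIF and -0.95 to -0.26 on RA (2.72 ± 0.18, adjusted p 0.00532), and Ndn (1.16), H19 (1.10), Igf2r (1.10), Grb10 (1.02) and Peg12 (0.75) followed, whereas Igf2, Meg3 and Mest were not called. Among 26 cell cycle genes the inhibitors Cdkn2b (1.88 ± 0.30), Cdkn1a (0.95 ± 0.08) and Cdkn2a (0.86 ± 0.16) rose (11.5%) and none fell. The second probe of Cdkn1a was at 0.14 (not called, adjusted p 0.383). Among 16 stress genes Atf3 (1.63), Gadd45g (1.49) and Gadd45b (1.32) rose and Trib3 fell by 0.82. Of 18 glycolysis genes 1 fell, the phosphofructokinase gene Pfkp (-1.37 ± 0.07). Of 9 genes of the 2-cell-like state Tcstv3 (2.04 ± 0.37) and Tcstv1 (1.90 ± 0.36), which are near-identical relatives that probes may not separate, rose, from 0.22, 4.28, 0.72 and 1.00 with LIF to 1.87, 5.22, 3.06 and 4.24 on RA for Tcstv3. A second probe of Tcstv1 was not called (1.43, adjusted p 0.0675). Among 19 cell adhesion genes Itgb1 (1.27), Cdh2 (1.25), Itga3 (0.95) and Snai1 (0.78) rose and Epcam (-1.31 ± 0.23) fell. The second, dimmer probe of Epcam was not called (-0.75, with lines between -1.54 and -0.03, adjusted p 0.142). Of 10 germ cell genes Dazl rose (0.86), and of 12 cholesterol synthesis genes Sc5d did (0.60). These are 10% and 8.33% of their lists, near the share over all genes with a symbol. Of 8 reference genes 2 rose, among them B2m (1.03), while the differences of Actb, Gapdh and Ppia were not called.

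**Figure D5:**
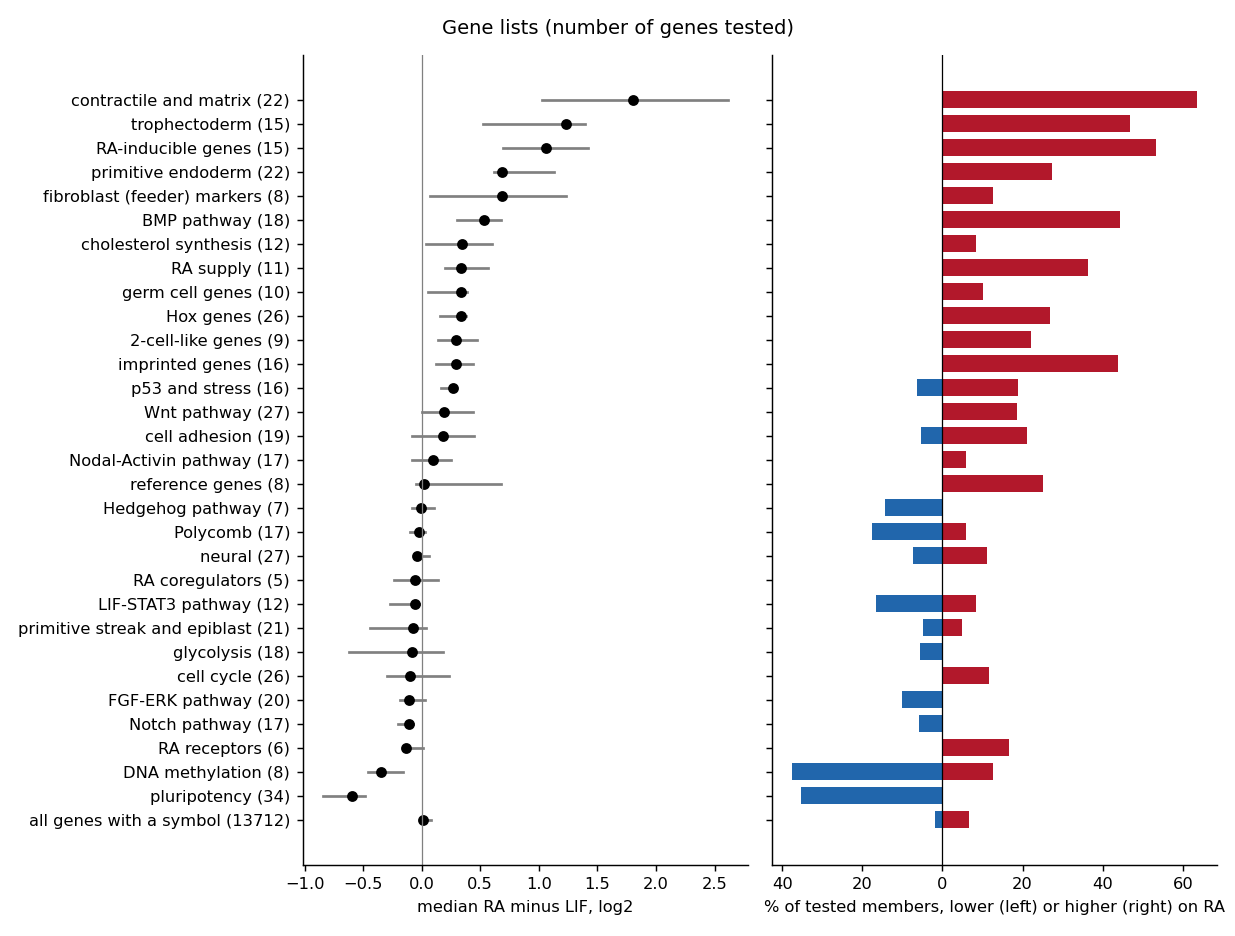
Gene lists with at least 5 tested genes, with the number tested in brackets. Left, the median RA minus LIF (log2) of each list, with a bar from the lowest to the highest median of the 4 lines; right, the percentage of its genes called lower (blue) or higher (red) on RA. Contractile and matrix genes lie at one end (median 1.80) and pluripotency genes at the other (-0.60), with all genes with a symbol at 0.01.

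The size of the measured differences varied between lines. With 1 array per medium and line, a difference in response cannot be told apart from the spread between arrays. By line, the median of the 8 reference genes was between -0.045 and 0.675. More than 2-fold rises were counted for 1381 genes in Nanog episomal, 822 in MG1.19, 613 in Nanog/EF1#6 and 598 in ES 129.3, and falls for 750, 282, 173 and 231. For the genes that rose in all 4 lines the median rise was 1.45 in Nanog episomal, 1.24 in MG1.19, 1.00 in Nanog/EF1#6 and 1.00 in ES 129.3. The differences of any pair of lines correlated with r of 0.43 to 0.72 over all genes, which share arrays and are no replicates. Whether the RA effect differed between the clones and the parental lines was tested by an interaction term, and 0 genes passed (1654 at an unadjusted p under 0.05, smallest adjusted p 0.904). The 5 genes with a symbol of smallest p were Eif5a (-0.36 in the clones and 0.71 in the parental lines), Plekhf2 (-0.17 and -1.37), Sap30 (0.01 and -1.15), Mycl (0.98 and -0.01) and C1d (1.00 and 0.16). Between the strains 0 genes passed as well (2639 unadjusted, smallest adjusted p 0.692). There the 5 genes were Cnn1 (2.57 in the 129Sv lines and 1.01 in the 129SvEv-Tac lines), Mymx (-2.16 and -0.38), Arl4c (2.36 and 0.97), Krt19 (2.33 and 0.47) and Car4 (1.39 and 0.40), and strain cannot be told apart from the day of image processing. With 2 lines against 2, these tests have 2 residual degrees of freedom per gene before moderation, and no call is no sign of an equal response.

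To see which levels on RA also differ from those of cells without LIF, the RA arrays were compared directly with the arrays without LIF of the same lines. These media differ in both RA and LIF, so a difference here cannot be credited to RA alone. The RA arrays are also those of the comparison with LIF, so genes picked there for large changes are not tested afresh. In this comparison 1493 genes were higher on RA (3.96%) and 646 lower (1.71%). Of the 20 largest rises over LIF, Pmp22 was 4.38 ± 0.22 above its level without LIF (adjusted p 0.00106), and Adgra2 (3.65), Meis1 (3.21), Tshz1 and Acta2 (both 3.02), Zfp703 (2.93), F3 (2.67), Zadh2 (2.62) and Cdc42ep1 (2.58) were higher too. Outside those 20, Anxa1 (2.75), Stra8 (2.73) and Tcstv3 (2.702) also lay above the level without LIF. Of the 20 largest falls, Slc7a3 was at -3.565 ± 0.105, and Mtm1 (-2.48), Platr10 (-2.08), Slc7a7 (-1.99), Pdk1 (-1.92), Pla2g10 (-1.74), Etv5 (-1.68), Pcolce2 (-1.41) and Tdh (-1.29) were lower too, while outside those 20 Otx2 was at -2.83 and Epcam at -1.92. Slc7a3 was 3.64 to 3.86 without LIF and 2.76 to 3.58 with LIF, so that only the RA arrays were low. Other large falls showed no such difference: Nr0b1 was 0.53 lower on RA than without LIF (adjusted p 0.169), Tcl1 0.43 (0.0811), Lrrc34 0.27 (0.303) and Hmces 0.07 (0.417).

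By group, 17 of the 22 contractile and matrix genes, 11 of the 22 primitive endoderm genes, 10 of the 15 RA-inducible genes, 7 of the 15 trophectoderm genes and 7 of the 26 Hox genes were higher on RA than without LIF, and 0 of each list were lower. Over all 13712 genes with a symbol, 989 were higher on RA than without LIF and 445 lower. Of the 34 pluripotency genes 5 were higher on RA and 8 lower. The 5 higher ones include Klf4, and the 8 lower ones Sox2 (-1.05), Utf1 (-1.33) and Phc1 (-1.31). Of 18 glycolysis genes 8 were lower on RA than without LIF and 0 higher, although 1 differed from LIF. Stra6 (1.01) and Dhrs3 (0.83) were higher on RA than without LIF, while Rdh10 (0.45, adjusted p 0.0569) was not called.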

How the data were processed

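RNA of 4 ES cell lines in 3 media was hybridized to 12 arrays with 2 colors each (the NIA Mouse 44K design), of which 8 form the main comparison. Per the file headers, the authors extracted the scanner images with Agilent Feature Extraction 7.5.1, and the deposited files hold the mean signal and local background of each spot in intensity units. The authors also deposited normalized values in log10 units, used here as an alternative; 1 of these columns counts as score values, because the authors coded 10 missing cells in it by a fixed number, which were set to missing.

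Values were computed with limma 3.58.1 in R 4.3.3 with the package data.table (version 1.17.8): normexp background correction with an offset of 50, loess within arrays, outlier spots missing (3 to 28 per array), saturated spots kept, spots of a probe averaged as log2(Cy3/Cy5). Of 41006 gene probes 17038 were named, 15294 by RefSeq accession and 1744 through the oligo identifiers of identical probes in the supplementary tables of the study (names only). A gene is represented by its brightest probe. RA was tested against LIF by lmFit and eBayes with line as a block, two-sided, adjusted by Benjamini and Hochberg over 37680 genes, and called at 0.05 and 1.5-fold. Where a value was missing (83 genes, 4 of them called), the fit uses the remaining lines. The arrays are paired because they share the cell line, and deviations of paired arrays from the group means correlated with r of 0.05 to 0.67. A description in the series names MG1.19 and another line as the parents of the integrated and the episomal clone, the methods name a different origin, and the pairs used here follow the strains of the labels. One array per line and medium makes p-values a measure of the spread between lines, and 4 pairs alone could not give a sign test below 0.125. The number of arrays limits the precision.

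Named genes are the 20 largest rises and falls changed in all 4 lines, all RA and Hox genes, up to 6 called genes of each other list and the leading genes of the interactions, and exceptions are stated. Some genes that the rule names are not reported here, while counts over lists include them. The question, the markers and the lists were chosen with earlier results of these data known, so a list's count is a description. The scripts were tested on simulated data. Alternatives were other signals and normalizations, a filter on dim genes, other fits and error variances, and leaving out each line.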

Additional observations from a re-analysis of the deposited data

Results flagged for a closer look

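For 7 of 187 named genes 1 of the 4 differences lay far from the other 3, where chance flags about 1 in 20. Among called genes, the difference of Plat was 1.41 in Nanog/EF1#6 against 2.45 to 2.55 in the other lines, that of Cdkn2b 0.73 in Nanog/EF1#6 against 2.15 to 2.44, and that of Cdkn1a 0.66 in Nanog/EF1#6 against 1.03 to 1.06. Hoxa5 was at 2.64 in Nanog episomal against 1.72 to 1.85, and Itga3 at 0.41 in ES 129.3 against 1.09 to 1.16. Hoxd10 (-0.005 in Nanog episomal) and Hoxc5 (-0.27 in Nanog/EF1#6) were not called. Hoxd10 read below the negative controls on 3 LIF and 4 RA arrays.

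In some genes that were not called, the sign of the difference was shared within each kind of line and opposite between kinds. Many of these differences were close to 0, and such a split of signs can arise by chance. Between clones and parental lines the effects differed by -1.07 for Eif5a, 0.15 for Hoxa6 and 0.10 for Lrat. Between 129SvEv-Tac and 129Sv lines they differed by 0.73 for Crabp1, 0.66 for Cdx2, -0.27 for Rbp2 and 0.13 for Hoxa11. For Cdx2 the difference was -1.07 in Nanog episomal and -0.02 to 0.21 in the other lines. Those of Hoxa6, Lrat and Hoxa11 lay between -0.11 and 0.21 in all lines. Hoxa11 also read below the negative controls on 2 LIF and 2 RA arrays. On another array design the authors describe the probe of Cdx2 as one that did not respond, and whether the probe used here responds was not tested. None of these passed the interaction test (smallest adjusted p over all genes 0.904 and 0.692).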

How the results depend on the processing

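The direction of every called gene named in the report was kept under each of 17 alternatives, except that the mean over all probes turned Zfp503, which was not called, to 0.91. Against 1714 genes called and 833 changed in all 4 lines, the processed signals of the scanner software gave 1947 and 1057, the authors' values 1941 and 1057, Cy3 alone 2023 and 950, correction of Cy5 bleaching 1784 and 845, and all 12 arrays in the fit 2205 and 854. Without background subtraction, which compresses ratios by construction, 309 and 189 were called. A 2-fold threshold gave 675 and 243. The fit with no replicate block, which drops the pairing by line, gave 859 and 502, and for RA against no LIF 1432 in place of 2139. The day of image processing as a block gave 944 and 514. The error variance of 500 genes, a choice the paper describes for its own tests, gave 0 and 0. Leaving out 1 line at a time gave 0 (without MG1.19) to 1632 genes called (without Nanog episomal), and 0 to 1092 changed in all remaining lines. For RA against no LIF leaving out 1 line gave 1572 to 2343. Why MG1.19 decides the count was not tested. Both interactions gave 0 genes under 6 alternatives each.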
